A study of Mus musculus with 2 samples.

Results

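Broad stretches of open chromatin were examined in the limb of the mouse embryo, mapped by DNase-seq, an assay that digests chromatin with the nuclease DNase I and sequences the fragment ends, so that open DNA stands out. Hotspots are the intervals of raised cutting that the authors called in each library. A broad hotspot is defined here as a hotspot of 2000 bp or wider in 1 library that overlaps a hotspot of 2000 bp or wider in the other, on chromosomes 1 to 19, the pair being merged. This rule chose 918 merged regions, which cover 2.63 Mb, out of 98423 merged hotspots that the 2 libraries shared at any width. Width and presence in both libraries were the values used for the choice, so they are described below without a test and support nothing.

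The study has a single group, whole limb tissue of strain B6NCrl at 11.5 days of embryonic development, from pooled male and female embryos, with 2 biological replicates of 1 library each. Both libraries carry the same donor label, forelimb and hindlimb are not told apart in the labels, and replicate 2 names 2 sequencing instruments where replicate 1 names none. No treatment, mutant or second tissue was present, so comparisons are between the libraries and between broad and narrower hotspots of the same libraries. Because there is 1 group of 2 libraries, no test between groups was possible. Shares are given with Wilson 95% intervals. These describe only the counting error for a number of regions, treated as independent although neighbours may not be. Read depth is unknown, because the lists hold no read counts.

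Most open sites in a genome are short, about the length of DNA freed when a nucleosome gives way to bound transcription factors. Many vertebrate promoters lie in CpG islands, stretches rich in G, C and unmethylated CG dinucleotides that tend to be open in many tissues. Genes that control development often have islands that extend well beyond the start of transcription, and the limb bud uses many such genes to lay down the skeleton and to keep its mesenchyme dividing.

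Most broad hotspots lay at gene starts in CG-rich sequence, and 77 of the 918 lay away from annotated protein-coding starts. The sequences of 7 stretches of 150 bases are given because they show what the open DNA looked like in both settings. They are from the GRCm38 (mm10) assembly, read 5′ to 3′, in lower case with each CG dinucleotide in capitals. The first 2 are the strongest shared peaks, outside annotated UTRs, of the 2 widest broad hotspots without a protein-coding start, on the plus strand at chr11:120189966-120190115 and chr8:92364536-92364685. They hold 15 and 9 CG dinucleotides.
near Slc38a10: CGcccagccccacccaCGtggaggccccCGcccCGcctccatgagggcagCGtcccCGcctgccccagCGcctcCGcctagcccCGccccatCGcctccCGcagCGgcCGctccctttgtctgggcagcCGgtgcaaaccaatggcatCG
near Irx5: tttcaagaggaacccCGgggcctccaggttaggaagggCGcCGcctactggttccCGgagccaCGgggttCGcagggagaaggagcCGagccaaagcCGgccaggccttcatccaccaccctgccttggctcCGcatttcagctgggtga

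Next are the strongest shared peaks of the 2 widest broad hotspots that have neither a protein-coding start nor a CpG island-like window, on the plus strand at chr9:107981776-107981925 and chr2:38823076-38823225. They hold 1 and 3 CG dinucleotides, and they show the minority of broad hotspots whose sequence is not island-like.
near Inka1: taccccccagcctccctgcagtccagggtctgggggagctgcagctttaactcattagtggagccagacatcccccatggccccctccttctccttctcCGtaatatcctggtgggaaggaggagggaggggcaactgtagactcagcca
near Nr6a1: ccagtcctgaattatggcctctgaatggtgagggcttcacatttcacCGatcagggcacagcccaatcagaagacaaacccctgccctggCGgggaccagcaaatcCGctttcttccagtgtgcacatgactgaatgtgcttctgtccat

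The last 3 are the 150 bases before a RefSeq start, from the RefSeq promoter table for the same build, for genes whose broad hotspot is described below. Tnrc18 has the widest region of all and its bases lie at chr5:142817663-142817812 on the minus strand. Those of Msx1, a homeobox gene of the limb mesenchyme, lie at chr5:37824586-37824735 and those of Zfp36l1, a gene for an mRNA-decay protein, at chr12:80113014-80113163, both on the minus strand. They hold 13, 14 and 6 CG dinucleotides.
Tnrc18: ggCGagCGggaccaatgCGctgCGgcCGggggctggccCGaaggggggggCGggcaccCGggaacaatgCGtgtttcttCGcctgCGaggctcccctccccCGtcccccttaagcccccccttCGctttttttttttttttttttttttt
Msx1: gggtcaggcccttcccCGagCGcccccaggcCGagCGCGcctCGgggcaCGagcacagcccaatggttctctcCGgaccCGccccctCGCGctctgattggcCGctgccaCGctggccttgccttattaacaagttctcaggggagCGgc
Zfp36l1: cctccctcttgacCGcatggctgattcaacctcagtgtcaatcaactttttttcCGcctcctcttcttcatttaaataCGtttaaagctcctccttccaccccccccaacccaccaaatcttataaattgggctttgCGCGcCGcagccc

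On chromosomes 1 to 19 replicate 1 had 147856 hotspots with a median width of 251 bp, and replicate 2 had 140317 with a median of 263 bp. Hotspots of 2000 bp or wider numbered 1192 in replicate 1, or 0.806% of its hotspots and 5.83% of its hotspot length. In replicate 2 they numbered 1747, or 1.25% of its hotspots and 8.13% of its hotspot length. Of these, 77.3% (74.8 to 79.6) in replicate 1 and 52.8% (50.4 to 55.1) in replicate 2 met a broad partner, which are the 2 directions of 1 comparison. The wide hotspots that met none were seldom missing from the other library. Of the 271 in replicate 1 only 2 overlapped nothing in replicate 2, and the widest partner of the others had a median of 1733 bp. Of the 825 in replicate 2 only 13 overlapped nothing in replicate 1, with a median widest partner of 1496 bp.

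The merged regions were 2021 to 11534 bp wide, with a median of 2597 bp and quartiles of 2341 and 3048 bp. In all, 244 reached 3000 bp, 83 reached 4000 bp and 32 reached 5000 bp. Where a region held more than 1 broad hotspot of a library their widths were added, and 911 regions held exactly 1 from each. The median width was 2420 bp in replicate 1 and 2477 bp in replicate 2. Replicate 2 was the wider in 517 regions, replicate 1 in 396, and 5 had the same width in both. Widths were within a factor of 1.25 of each other in 810 regions, and 44 differed by a factor above 1.5, of which 36 were wider in replicate 2 and 8 in replicate 1. Spearman's rho of the widths was 0.647 across the 918 regions, a description over regions that share 2 libraries and that were all chosen to exceed the same width.

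The regions nearest to the width limit lay at gene starts. Just inside it, with 2000 bp in replicate 1, were those at Nf1 (2125 bp in replicate 2), at Trappc13 and Trim23 (2060 bp) and at Fam53c (2073 bp). Just outside it, short of the limit by 1 bp in replicate 2, were those at Nfyb (2413 bp in replicate 1), Lifr (2054 bp) and Smarcd3 (2354 bp).

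**Figure D1:**
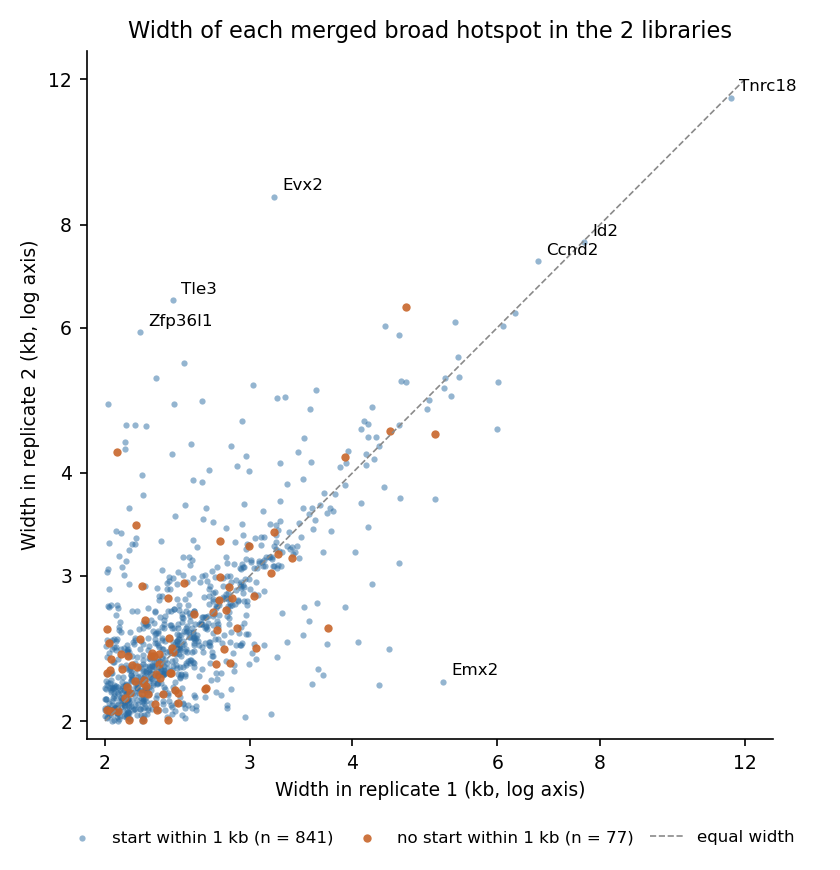
Width of the 918 broad hotspots in replicate 1 (x axis) and replicate 2 (y axis), in kb on log axes, with 841 regions within 1 kb of a protein-coding start in blue and 77 others in orange. The dashed line marks equal width, and points above it, such as Evx2 at 3215 and 8648 bp, were wider in replicate 2.

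The widest region, at Tnrc18 on chromosome 5 (142812678 to 142824211), spanned 11534 bp in replicate 1 and 11406 bp in replicate 2, each as 1 unbroken hotspot. It held 20 peaks in replicate 1 and 22 in replicate 2, and 16 of them were shared. Id2, which encodes an inhibitor of basic helix-loop-helix factors, had 7648 bp in replicate 1 and 7613 bp in replicate 2 with 14 peaks in each (chromosome 12, 25094131 to 25101796). Ccnd2, a D-type cyclin that drives cells out of G1, had 6729 and 7226 bp, also with 14 peaks in each. Tgif1, a homeodomain repressor in TGF-beta signalling, had 6304 and 6250 bp. Mex3b, an RNA-binding protein, had 6090 and 6019 bp. In these 5 regions the libraries differed by a factor of at most 1.07.

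Other regions among the 10 widest depended more on the library. Evx2, a homeobox gene next to HoxD and active in the distal limb bud, had 3215 bp in replicate 1 and 8648 bp in replicate 2 (chromosome 2, 74651695 to 74660342). Replicate 1 still covered 64.2% of that span, with 4 separate hotspots and 11 peaks against 18 in replicate 2. Tle3, a Groucho-type co-repressor, had 2419 bp in replicate 1 and 6485 bp in replicate 2, and 5 hotspots of replicate 1 covered 85.2% of the span. At Mecom, a zinc finger factor gene, broad hotspots added up to 5995 bp in replicate 1 and 4518 bp in replicate 2. At Hoxa13, which patterns the future hand and foot, they added up to 5335 and 6087 bp (chromosome 6, 52261696 to 52267788). The Hoxa13 region began 816 bp from the nearest Hoxa13 start and lay within 1 kb of a start of the long noncoding RNA Hottip, and its observed to expected CpG ratio was 0.303.

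Where widths differed by a factor above 1.5, the narrower library still covered most of the span, with 2 or more hotspots. Why the widths differed was not tested. Zfp36l1 had 2205 bp in replicate 1 and 5919 bp in replicate 2, yet replicate 1 held 14 peaks there and replicate 2 held 12, and 7 hotspots of replicate 1 covered 88.0% of the span. Igfbp2, which binds insulin-like growth factors, had 2016 and 4853 bp, with 81.0% covered in replicate 1. Sema6a, a guidance molecule, had 2305 and 5211 bp, with 89.0% covered in replicate 1. In the opposite direction Emx2, a homeobox gene, had 5158 bp in replicate 1 and 2232 bp in replicate 2, with 9 peaks in each and 78.9% covered in replicate 2. Gtf2a1, a basal transcription factor subunit, had 4433 and 2449 bp. Mllt10 had 4310 and 2213 bp, Fzd2, a Wnt receptor, had 4057 and 2494 bp, and Hdac4, a histone deacetylase, had 3679 and 2274 bp. Over the 44 uneven regions the narrower library covered a median of 88.5% (64.2 to 99.5%) with a median of 3 hotspots (2 to 8). Over all 918 regions the median part covered by hotspots of any width was 98.0% in replicate 1 and 98.8% in replicate 2.

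Several others of the 32 regions of 5000 bp or more are given as examples, chosen after their values were seen. Arid1a and Smarca2, subunits of SWI/SNF chromatin remodellers, had 4932 and 4779 bp and 5374 and 5527 bp in replicate 1 and replicate 2. Among transcription factors, Isl2, a LIM homeobox gene, had 5169 and 5067 bp, and Zic2, a zinc finger gene, had 4558 and 5874 bp. Dusp4, a phosphatase that limits MAP kinase signalling, had 5182 and 5218 bp with 9 peaks in each. Among genes of the cell surface and its lining, the ephrin gene Efna5 had 4642 and 5157 bp, the protocadherin gene Pcdh7 had 4380 and 6031 bp, and Marcks, a substrate of protein kinase C, had 6005 and 5151 bp. Widths were closest in Dusp4, Isl2, Smarca2 and Arid1a, and the larger differences among these went in both directions.

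Merging joined hotspots that overlapped little in a few cases. The region at Fgf9, a growth factor of the limb, spans 5023 bp but comes from hotspots of 2097 and 3077 bp that share 151 bp. Conversely, some neighbours stayed apart by a small gap. Pairs of broad hotspots lay 2 bp apart at Mecom, 19 bp at L3mbtl3, 22 bp at Samd4, 78 bp at Msx1, 107 bp at Sin3a, 110 bp at Otx1, 620 bp at Cxxc4 and 680 bp at Wnt5a. Counting gaps of up to 50 kb, 53 regions (5.77%) fell into 26 groups, of which 25 were pairs. The group of 3 joined the starts of Smarcc2, Myl6 and Esyt1 over 68743 bp of chromosome 10.

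**Figure D2:**
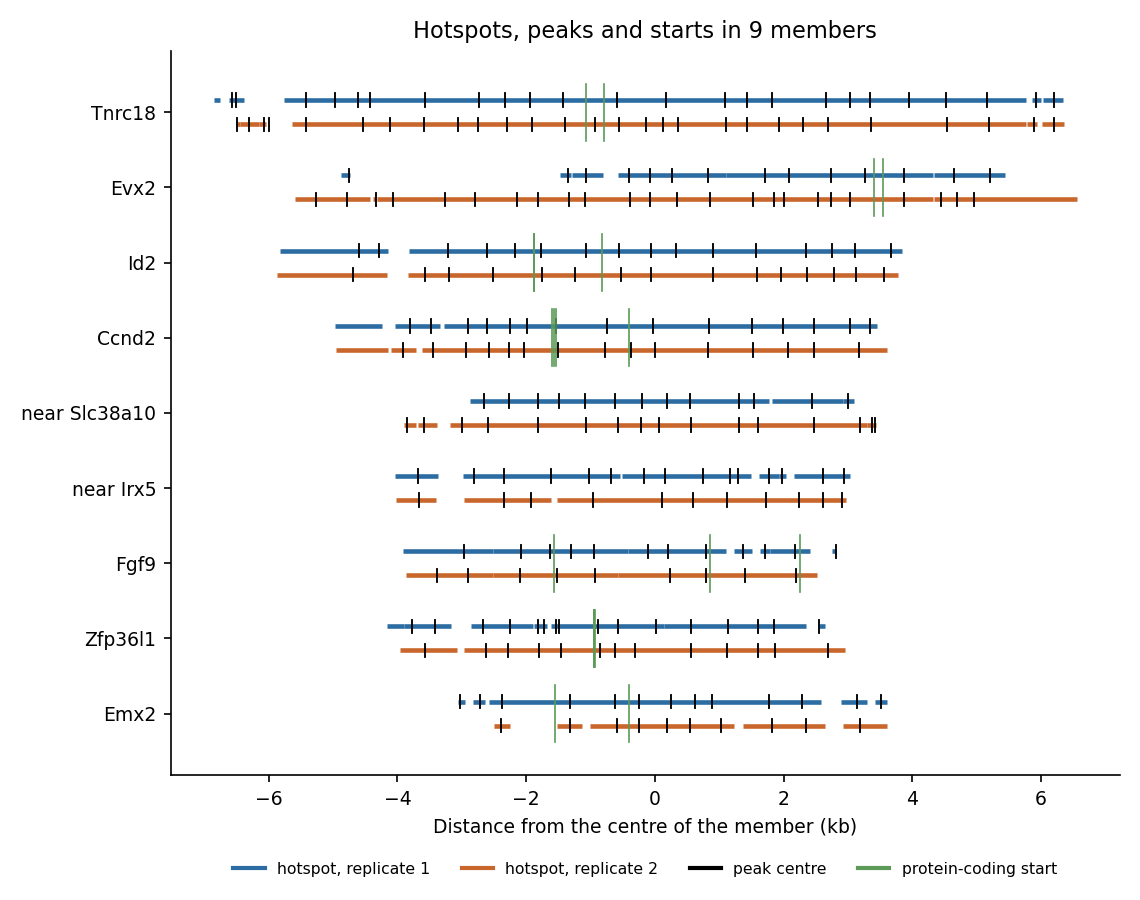
Hotspots of replicate 1 (blue) and replicate 2 (orange), peak centres (black ticks) and protein-coding starts (green) in 9 broad hotspots, with the distance from the centre of the region in kb on the x axis. Tnrc18 and Id2 are unbroken in both libraries, and Evx2, Zfp36l1 and Emx2 are unbroken in 1 library and split in the other.

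Inside a broad hotspot lay a row of peaks, which the authors called as intervals of 150 bp. The median was 5 peaks in replicate 1 (2 to 20) and 4 in replicate 2 (1 to 22), with 4 shared. Per kb this was 1.82 and 1.61 peaks, against 1.77 and 1.56 in shared hotspots of 1 to 2 kb, a class that starts at 1000 bp and ends below 2000 bp. The other classes had more peaks per kb than broad hotspots. The values were 1.86 and 1.63 in the other merged regions of 2000 bp or wider and 1.84 and 1.76 at 500 to 1000 bp. Under 500 bp they were 3.44 in both libraries. Neighbouring peaks had a median spacing of 495 bp in replicate 1 and 530 bp in replicate 2. In merged regions of 2000 bp or wider that did not meet the rule it was 480 and 530 bp. In hotspots of 1 to 2 kb it was 460 and 480 bp, and in those of 500 to 1000 bp 320 bp in both libraries. Spacing was taken within a region, so a narrow region cannot hold a wide one and a region with 1 peak gives none. The rise with width is thus partly set by the classes. The highest peak signal is a value of the authors with no stated scale that ranks peaks within a list. Its median was 116 and 118 in broad hotspots and 108 and 109 in the other merged regions of 2000 bp or wider. In hotspots of 1 to 2 kb it was 102.5 and 101, and in those under 500 bp 48 and 38. At starts alone the medians were closer, 117 and 119 in broad hotspots against 111 and 112 at 1 to 2 kb. In replicate 1, 76.1% of the 4833 peaks in broad hotspots overlapped a peak of replicate 2, against 89.1% of its peaks in shared hotspots of any width. In replicate 2 the share was 85.9% of 4260 peaks, against 93.4%. Hotspots of 1 to 2 kb were close to the broad hotspots, at 76.4% in replicate 1 and 87.0% in replicate 2. Merged regions of 2000 bp or wider that did not meet the rule had 74.7% and 82.5%, and hotspots under 500 bp had 98.4% and 98.5%. Of the peaks in broad hotspots above the median signal of their library 82.1% and 88.5% overlapped, and of the others 46.6% and 65.5%.

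Of the 918 broad hotspots 841, or 91.6% (89.6 to 93.2), had a protein-coding start no more than 1 kb away, against 18.7% of shared hotspots of any width. The share rose with width in the narrower classes too, from 7.33% under 500 bp through 22.2% at 500 to 1000 bp to 65.8% at 1 to 2 kb. In 1471 merged regions of 2000 bp or wider that did not meet the rule it was 82.4% (80.4 to 84.3). A wide region has more room for a start, so the strongest peak was also used in place of the whole region. That peak lay within 1 kb of a start in 772 broad hotspots, or 84.1% (81.6 to 86.3). In the other merged regions of 2000 bp or wider the share was 76.3% (74.0 to 78.4), and in hotspots of 1 to 2 kb 64.0%. A start lay inside 834 broad hotspots, of 1 gene in 722 and of 2 or more genes in 112. Among regions at a start, counted by gene record, 13.8% of broad hotspots had starts of 2 or more genes within 1 kb. The share was 10.5% in the other merged regions of 2000 bp or wider and 12.2% at 1 to 2 kb.

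The 5 widest of the regions with starts of several genes were at Brd2 and H2-DMa (4418 bp), Zbtb25 and Zbtb1 (4408 bp), Ctbp2 and Fgfr2 (4372 bp), Gpr108 and Trip10 (4354 bp), and Cramp1l and Ift140 (3980 bp). Counted by gene record, 3 starts lay in the regions at Hdlbp and Sept2 (2431 and 2451 bp) and at Chtf8 and Utp4 (2121 and 2159 bp), where Sept2 and Chtf8 each have 2 records. Brd2 encodes a reader of acetylated histones, and Fgfr2 a receptor for limb fibroblast growth factors. Their widths in replicate 1 and replicate 2 were 4268 and 4418 bp at Brd2, 3489 and 4408 bp at Zbtb25, 4372 and 3841 bp at Ctbp2, 2117 and 4354 bp at Gpr108, and 2219 and 3980 bp at Cramp1l. In 8 regions a whole protein-coding gene lay inside the hotspot, among them the short genes Id1, Evx2 and Hist1h1b, the latter a linker histone gene. That is 0.871% of broad hotspots, against 1.02% of the other merged regions of 2000 bp or wider and 0.281% at 1 to 2 kb.

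CpG island-like sequence was defined as a window of 200 bp with a GC content above 50% and an observed to expected CpG ratio above 0.6. It was present in 907 broad hotspots, or 98.8% (97.9 to 99.3), against 22.8% of shared hotspots of any width. In the other merged regions of 2000 bp or wider the share was 95.1% (93.9 to 96.1). In hotspots of 1 to 2 kb it was 79.9%, in those of 500 to 1000 bp 35.2% and in those under 500 bp 6.62%. With a window of fixed size, 1 kb at the strongest peak, the shares were 96.3% in broad hotspots and 92.0% in the other wide regions. In the narrower classes they were 77.7%, 38.2% and 15.9%. Among regions at a start the difference was small, 840 of 841 in broad hotspots against 99.4% in the other wide regions and 97.6% at 1 to 2 kb. The median CpG ratio of the whole region was 0.738 there, against 0.716 and 0.705. Among regions without a start the difference in island-like sequence was larger. It was present in 67 of 77 broad hotspots, or 87.0% (77.7 to 92.8), against 74.9% (69.3 to 79.8) of the other wide regions. At 1 to 2 kb the share was 45.8%, and at any width 10.5%. The median CpG ratio was 0.522, against 0.441 in the other wide regions and 0.322 at 1 to 2 kb. Repeat-masked bases made up a median of 9.36% of a broad hotspot and at most 32.2%.

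**Figure D3:**
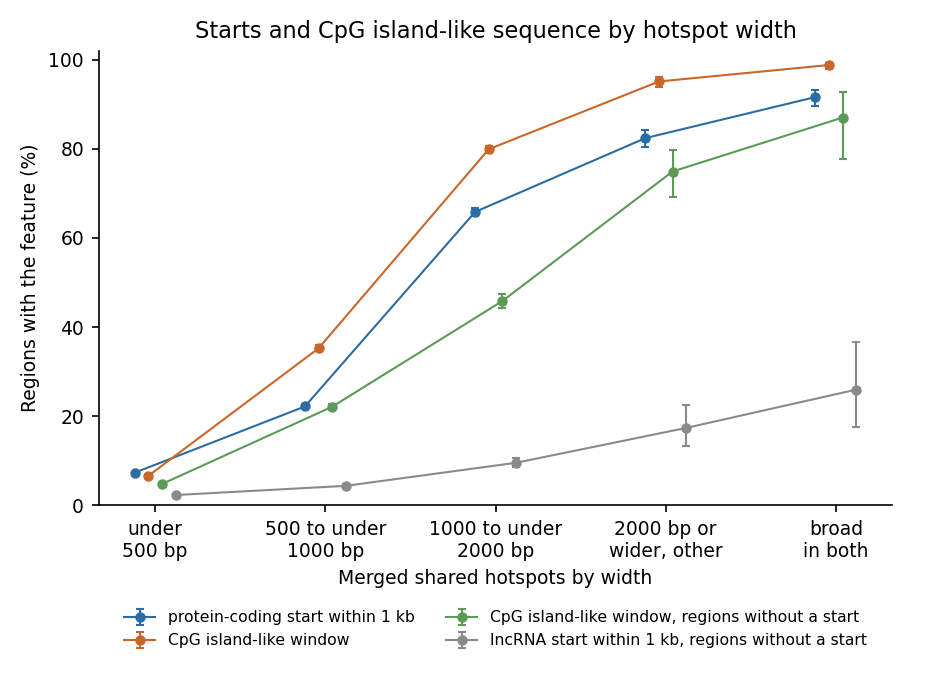
Share of merged shared hotspots (y axis, percent) with a protein-coding start within 1 kb, a CpG island-like window, and, among regions without a start, an island-like window or a long noncoding RNA (lncRNA) start, by width (x axis), with Wilson 95% intervals as bars. The 4 shares were higher in broad hotspots than in hotspots of 1 to 2 kb, for starts 91.6% against 65.8%. In the other merged regions of 2000 bp or wider the share with a start was 82.4%.

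For 718 broad hotspots that hold the start of 1 gene, with no start of another gene within 1 kb, the reach to either side of the start was measured along the gene's direction. The median was 1013 bp upstream and 1301 bp downstream of the start. The region reached farther downstream in 449, or 62.5% (58.9 to 66), against 58.3% of such shared hotspots of any width. The share was 62.0% with the edges of replicate 1 and 62.7% with those of replicate 2. Hotspots of 1 to 2 kb were above this at 66.7% (65.5 to 67.9), with medians of 524 and 732 bp, while those under 500 bp reached farther downstream in 31.5%. Of the bases in broad hotspots at starts, 30.3% were intergenic, 46.1% intronic, 16.5% in UTRs and 7.02% coding.

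Peaks were not spread evenly around the start. In the 200 bp before it, replicate 1 had 66.9 peaks per 100 broad hotspots and replicate 2 had 63.6, close to the 68.1 and 62.7 of hotspots of 1 to 2 kb. In the 200 bp after the start hotspots of 1 to 2 kb had 26.6 and 31.1, and broad hotspots had 24.5 and 24.2. A second maximum followed downstream, of 43.0 per 100 at 800 to 1000 bp in replicate 1 and of 38.6 at 600 to 800 bp in replicate 2. In hotspots of 1 to 2 kb the second maximum was nearer to the start, at 400 to 600 bp, with 36.8 and 28.3. Upstream, at 800 to 1000 bp before the start, broad hotspots had 27.7 and 22.7 peaks per 100 against 8.18 and 7.39. Against hotspots of 1 to 2 kb, the broad hotspots thus had a similar number of peaks just before the start. They had more on both flanks, where the rule for width gives them room. The 1058 other merged regions of 2000 bp or wider had the same shape. Their second maximum was 40.4 and 35.9, at 600 to 800 bp, and they had 21.1 and 19.6 at 800 to 1000 bp before the start.

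**Figure D4:**
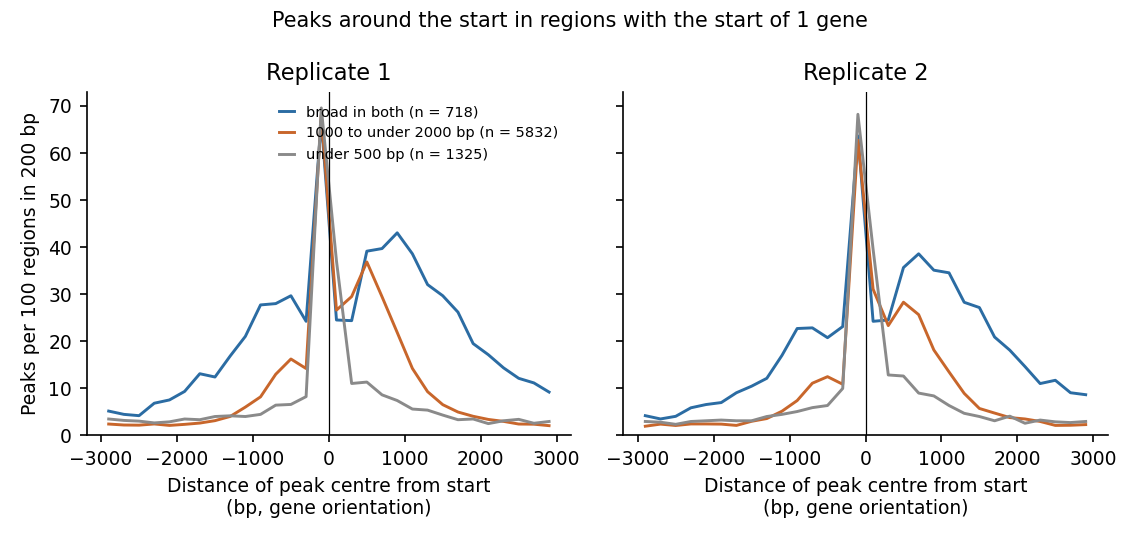
Peaks per 100 regions in bins of 200 bp (y axis) by distance from the start in the gene's direction (x axis, bp), in replicate 1 (left) and replicate 2 (right), for regions with the start of 1 gene and no other within 1 kb. Broad hotspots (blue, 718 regions) share the maximum just before the start with narrower ones and show a second maximum of 43.0 and 38.6 downstream.

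The 77 broad hotspots without a protein-coding start within 1 kb were 2064 to 6359 bp wide, with a median of 2514 bp. Their nearest start was a median of 32960 bp away, within 5 kb for 16, within 10 kb for 25, above 50 kb for 30 and above 100 kb for 13. The centre was intergenic in 54, intronic in 19, in a UTR in 2 and in a coding exon in 2. A start of a long noncoding RNA lay within 1 kb of 20, or 26.0% (17.5 to 36.7), against 17.4% (13.2 to 22.5) in other wide merged regions without a start, an interval that overlaps, 9.55% of such hotspots of 1 to 2 kb and 3.14% at any width. RefSeq lists an mRNA start within 1 kb of 12 of the 77 that the main annotation does not count, among them regions at Pax6, Kdm6b and Zbtb20, so those 12 lie at starts in another annotation.

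The widest of them was 33059 bp from the nearest start, that of Slc38a10, an amino acid transporter gene, at chromosome 11, 120184405 to 120190763. It lay at the start of the noncoding RNA 2810410L24Rik and had 4648 bp and 13 peaks in replicate 1 and 6359 bp and 11 peaks in replicate 2. Others lay closer to developmental or neuronal genes. The region 3754 bp from Irx5, an Iroquois homeobox gene, had 4440 and 4494 bp of broad hotspot and 14 and 10 peaks. That 2635 bp from Otx1, a homeobox gene best known in the forebrain, had 2071 and 4239 bp and was separated by 110 bp from a second broad hotspot at the Otx1 start. That 3560 bp from Dnm1, which encodes a dynamin, had 3919 and 4182 bp, and its CpG ratio was low at 0.246.

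No island-like window was found in 10 of the 77. The 2 widest of these, whose strongest peaks are printed above, had 3246 and 3188 bp near Inka1 and 2992 and 3263 bp near Nr6a1, the latter at the start of the noncoding RNA Nr6a1os. Their strongest peaks had signals of 126 and 121 near Inka1 and of 124 and 113 near Nr6a1. Far from any start, a region 257435 bp from Nfe2l3 had 3731 bp in replicate 1 and 2595 bp in replicate 2, with 7 peaks in each.

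Of 20807 protein-coding genes, 948 had a broad hotspot within 1 kb of a start, which is 4.56%. Gene lists are set beside this share by their counts and by the median width of the widest shared hotspot within 1 kb of a start, which is 906 bp over all genes after merging, 662 bp in replicate 1 and 828 bp in replicate 2. Of the 375 genes in 17 lists 41 had a broad hotspot, or 10.9% (8.16 to 14.5). A gene with no shared hotspot at a start cannot have a broad one, and 31.4% of all protein-coding genes had no shared hotspot there. That share was 0% for the Id, cyclin and Myc list and for the immediate early list. It was 2.22% for limb mesenchyme transcription factors and 5.41% for limb signalling genes, and reached 72.2% for white blood cell genes. The lists were chosen with earlier results of these data known, and the genes of a list are not independent of each other.

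Among Id genes, cyclins, Myc genes and cell cycle inhibitors, which set whether progenitors keep dividing, 6 of 14 had a broad hotspot, or 42.9% (21.4 to 67.4). The median width was 2641 bp after merging, 2191 bp in replicate 1 and 2418 bp in replicate 2. Besides Id2 and Ccnd2, Id1 had 5271 bp in replicate 1 and 4954 bp in replicate 2, Ccnd1 had 4585 and 5173 bp, Myc had 5389 and 5226 bp and Mycn had 3360 and 3235 bp. The widths of the libraries were close in these 6 genes, which is a description only, since the rule required both to be broad. With a single library the share of this list was 57.1% in replicate 1 and 64.3% in replicate 2.

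Among immediate early and stress genes, which respond to signals within minutes and also to handling of tissue, 8 of 24 had a broad hotspot, or 33.3% (18 to 53.3). The median width was 1805.5 bp after merging, 1126 bp in replicate 1 and 1558 bp in replicate 2. The widest was Zfp36l1, described above. Jun, a subunit of AP-1, had 4308 bp in replicate 1 and 4306 bp in replicate 2. Klf4, a zinc finger factor, had 2141 and 3622 bp. The others were Atf3, Dusp1, Fosl2, Ier2 and Jund, which were 2277 to 2575 bp wide after merging.

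Among limb signalling genes 8 of 37 had a broad hotspot, or 21.6% (11.4 to 37.2). The median width was 1934 bp after merging, 1248 bp in replicate 1 and 1766 bp in replicate 2. By role, these were the ligands Fgf9 and Wnt5a, the receptors Fgfr2 and Rarg, the feedback inhibitors Dusp6, Spry2 and Smad6, and Aldh1a2, which makes retinoic acid. Wnt5a, which directs outgrowth of the limb mesenchyme, had 3922 bp in replicate 1 and 3864 bp in replicate 2, and a further broad hotspot of 2530 and 3158 bp lay 680 bp away. Dusp6, a phosphatase induced by FGF signalling, had 3235 and 4935 bp. Rarg, a retinoic acid receptor, had 2965 and 4196 bp, and Spry2, an inhibitor of receptor tyrosine kinase signalling, had 3567 and 2219 bp. The width differed between libraries in both directions within this list.

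Among limb mesenchyme transcription factors 8 of 45 had a broad hotspot, or 17.8% (9.29 to 31.3). The median width was 2097 bp after merging, 1053 bp in replicate 1 and 1452 bp in replicate 2. Osr2 had 4096 bp in replicate 1 and 4526 bp in replicate 2. Sall1, a zinc finger factor, had 2411 and 4214 bp. Msx1 had a broad hotspot at its start of 2563 and 2351 bp and another 78 bp away of 3952 and 4251 bp. Gli1 and Gli3, which carry the hedgehog signal to the nucleus, had 3863 and 4070 bp and 2782 and 2913 bp. Prrx1, the general marker of limb mesenchyme, had 2662 and 2960 bp, and Etv5 had 2671 and 2684 bp.

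Defining markers of the tissue and of other cell types are given by width and are not used to name cells. Of 6 mesenchyme markers only Prrx1 had a broad hotspot, and 4.56% of all protein-coding genes had one. The lack of a broad hotspot at a marker therefore does not show that a cell type is absent. Tbx5, the forelimb factor, had hotspots of 3052 bp in replicate 1 and 2437 bp in replicate 2 that did not overlap each other. Tbx4, a hindlimb factor, had 233 bp in replicate 1 and 3076 bp in replicate 2, and Lmx1b, the dorsal factor, had 989 and 2720 bp. Pitx1, also of the hindlimb, had 1041 and 862 bp, and Twist1 had 622 and 1452 bp. None of 17 markers of ectoderm, muscle, endothelium, blood and neural cells had one, and their widest hotspots were 0 to 1336 bp in replicate 1 and 0 to 1659 bp in replicate 2. Among them Cdh5, Tie1, Csf1r and Hbb-y had none in either library, Ptprc, Krt14 and Myf5 had none in replicate 2, and Kdr had 1179 and 1278 bp. The part of any other cell type in the broad hotspots was not tested.

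The remaining lists had 0 to 2 genes with a broad hotspot. Those with 1 or 2 had shares of 4.88 to 11.1%, against 4.56% of all protein-coding genes, which lay within their Wilson intervals. Housekeeping genes had 2 of 18 (Gapdh with 3804 and 3775 bp, and Tubb5 with 3057 and 2379 bp), neural genes 2 of 19 (Emx2 and Pax6), cartilage and bone genes 2 of 28 (Dlx5 and Sox6) and Hox genes with their Evx neighbours 2 of 41 (Evx2 and Hoxa13). Pluripotency genes had 1 of 14 (Lin28a), endothelial genes 1 of 18 (Nrp1) and muscle genes 1 of 20 (Six4). None was found at 24 genes of surface ectoderm and apical ridge, 18 of white blood cells, 16 erythroid, 16 of liver and gut, 14 of heart and 13 of neural crest and Schwann cells. With so few genes the Wilson interval of a count of 0 reaches 13.8% for the longest of these lists.

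**Figure D5:**
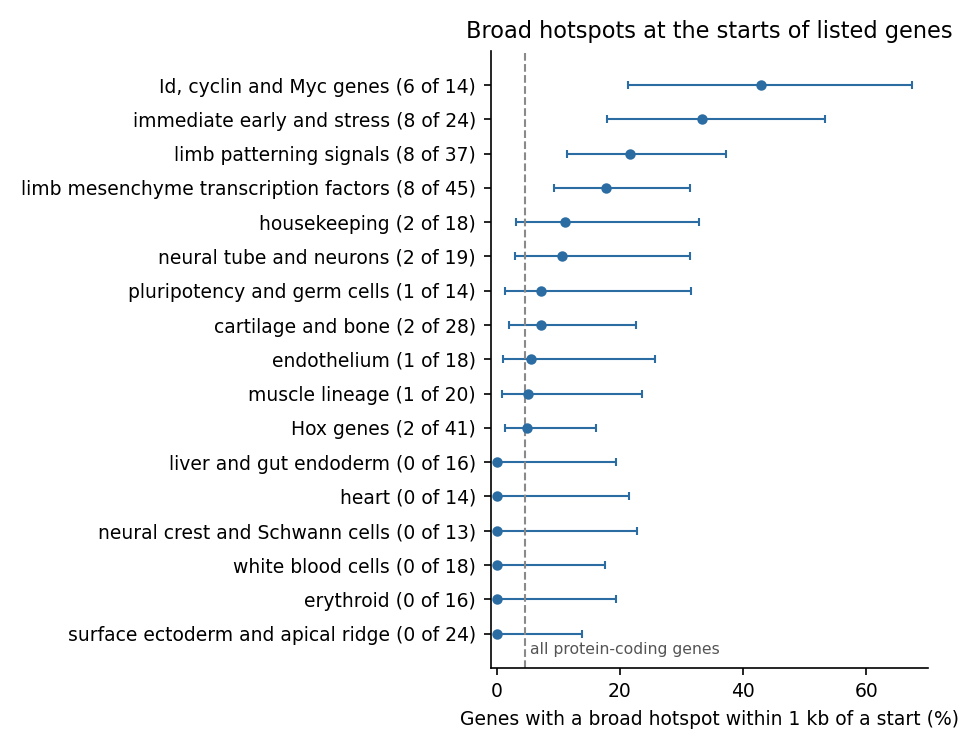
Share of the genes of each list with a broad hotspot within 1 kb of a start (x axis, percent), with Wilson 95% intervals as bars and the counts in the labels. The dashed line is the 4.56% of all protein-coding genes, and the intervals of the 4 topmost lists lie above it.

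Gene families defined by symbol are given by their counts, to be set beside the 4.56% of all protein-coding genes. Of the Frizzled receptors for Wnt ligands 4 of 10 had a broad hotspot (Fzd1, Fzd2, Fzd5 and Fzd8). Of the Wnt genes 1 of 19 did (Wnt5a), or 5.26% (0.935 to 24.6), which is near the share of all genes. Of the Fos and Jun genes there were 3 of 7, of the Id, Hes and Hey genes 5 of 13, and of the KLF and SP genes 8 of 25. Of the Gli, Zic and Glis genes there were 3 of 10, of the Sox genes 3 of 18 (Sox6, Sox11 and Sox12) and of the Forkhead genes 5 of 41. Hox genes had 1 of 39 with a median width of 481 bp, while none of 15 T-box and none of 5 GATA genes had one. Their median shared widths after merging were 1669 and 2356 bp, but the medians within a library were 371 and 945 bp for T-box and 445 and 1604 bp for GATA genes in replicate 1 and replicate 2. None of 20 Bmp and Gdf genes, 1 of 20 Fgf genes, 1 of 75 ribosomal protein genes (Rpl7), 4 of 67 replication histone genes and 22 of 385 Zfp genes had one. The shares of the Fgf, histone and Zfp genes, 5%, 5.97% and 5.71%, were near that of all genes. The Wilson interval of a count of 0 reaches 16.1% for the 20 Bmp and Gdf genes, and farther for the T-box and GATA genes. Of 1127 olfactory receptor genes none had a broad hotspot, and 98.3% of them had no shared hotspot of any width at a start.

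Sequence words of known factor sites were counted on both strands in the 150 bases at the centre of shared peaks. Near starts, the ETS word CCGGAAGT was in 1.51% (1.10 to 2.06) of 2518 peaks of broad hotspots, against 3.64% (3.41 to 3.89) of 24324 other shared peaks and 3.44% of all. The NRF1 word GCGCATGCG was in 0.993% against 1.70%, and in 1.63% of all. The GC box GGGCGG, bound by SP and KLF factors, was in 46.1% against 41.4%, and the SOX word ACAATG in 4.77% against 3.40%. The E-box CAGCTG was in 7.23% against 10.3%. Some of these differences were shared with or absent from the nearest classes. The NRF1 word was in 0.890% of peaks of the other wide merged regions, the GC box in 47.4% at 1 to 2 kb, and the SOX word in 3.94% (3.32 to 4.68) of the other wide regions against 4.77% (4 to 5.67). Of 23 words near starts, the intervals lay apart for 3 that were higher and 5 that were lower in broad hotspots. The word ACTGTAC, which is no factor's site, was in 0.556% against 0.719%, with intervals that overlapped.

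A broad hotspot has more peaks away from its start, so the words were also counted in windows placed in the same way at every gene, 250 bases before to 50 after the RefSeq start. Of 19152 such windows 891 lay in broad hotspots. The ETS word was in 3.59% (2.56 to 5.03) of these, against 9.91% (9.21 to 10.7) of 6426 windows in hotspots of 1 to 2 kb, 9.52% at 500 to 1000 bp and 5.45% of all windows. In 1130 windows of the other merged regions of 2000 bp or wider it was in 3.63%, close to the broad hotspots, in those under 500 bp in 2.54%, and in windows in no shared hotspot in 0.764%. The NRF1 word was in 2.24% (1.46 to 3.44) against 4.62% at 1 to 2 kb and 2.46% of all windows. In the other wide regions it was in 3.36% (2.46 to 4.58). The GC box was in 77.1% (74.2 to 79.7) against 70.4% at 1 to 2 kb, but in 76.7% (74.2 to 79.1) in the other wide regions. The windows of broad hotspots and of the other wide regions both had a median GC content of 67%, against 62.7% at 1 to 2 kb. In windows in no shared hotspot the GC box was in 15.0%. The SOX word, higher in peaks, was in 5.50% (4.18 to 7.20) of the windows against 6.27% (5.70 to 6.89) at 1 to 2 kb, with intervals that overlapped, and both were below the 10.4% of all windows. In peaks near starts too, the ETS word was about as frequent in the other wide regions, at 1.3% (0.962 to 1.76), less frequent under 500 bp, at 0.973%, and more frequent at 1 to 2 kb, at 4.55%. Its lower share was thus against hotspots of 500 bp to 2 kb. A word is a match of letters, not a bound site.

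Away from starts, 1090 shared peaks of broad hotspots were set against 87726 others. The GC box was in 23.6% (21.2 to 26.2) against 7.01%, and in 7.21% of all. The E-box CATCTG, a word of TWIST-like factors, was in 11.6% (9.80 to 13.6) against 20.2%, and in 20.1% of all. CAGCTG was in 9.36% against 16.8%. The HOX13 word TTTATNG was in 5.50% against 10.9%, the short CTCF word CCACNAGG in 3.67% (2.71 to 4.96) against 7.23%, with 7.18% of all, and the NFI word TTGGCA in 5.23% against 8.78%. The cAMP response element TGACGTCA was in 1.01% against 0.318%. The ETS word, lower near starts, was in 0.734% (0.372 to 1.44) against 0.324% here, from 8 peaks. Other wide merged regions were close to the broad hotspots for CATCTG, at 10.3% (8.94 to 11.9), and for the short CTCF word, at 3.6% (2.8 to 4.6), and the CTCF word was also in 3.89% at 1 to 2 kb. For the GC box they stood lower, at 16.1% (14.4 to 17.9). Against all other shared peaks, of the 23 words the intervals lay apart for 4 that were higher and 7 that were lower in broad hotspots. Base composition differed between the sets, and its part in these shares was not tested.

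Some broad hotspots had weaker peaks than most others of their kind. In 35 of them the highest peak signal was below 80 in both libraries, a bound chosen after the values were seen, against medians of 116 and 118 over broad hotspots and of 71 and 63 over hotspots of 500 to 1000 bp. Of these 35, 9 had no protein-coding start. The widest of the 35 were at Evx2 (67 and 68), Hoxa13 (63 and 68), Pde10a (66 and 77) and Lhx8 (75 and 73). They were followed by Gfi1 (58 and 57), a repressor in blood and inner ear cells, and Dlx5 (68 and 66). Fst, which encodes the activin inhibitor follistatin, had 68 and 72, and Pgr, the progesterone receptor gene, 48 and 52. Whether the genes of the 35 regions share a role was not tested. The lowest values were at a region near Onecut2, with 46 in replicate 1 and 44 in replicate 2.

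Broad hotspots were found on each of the 19 chromosomes. Per 10 Mb they were most frequent on chromosome 11, with 76 regions or 6.23, and least on chromosome 6, with 38 or 2.54. Per 100 protein-coding genes the order differed. Chromosome 12 had 7.31 and chromosome 3 had 7.07, while chromosome 7 had 3.06 and chromosome 2 had 3.09. No interval is given for these rates, because neighbouring regions are not independent.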

How the data were processed

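DNase-seq of 1 group, limb, was analysed in 2 libraries. Per the descriptions deposited with the files, the build is mm10 and calling used 1 filtered alignment per library, with replicates not pooled. Which aligner and caller were used is not given in the sources used here. Hotspots as deposited carry a −log10 q value by the authors, which reaches 100 as a ceiling in both libraries for 917 of the 918 broad hotspots. The top value was also carried by 37.8% of all hotspots of replicate 1 and by 35.9% of those of replicate 2. For shared hotspots of 1 to 2 kb the shares were 94.0% (replicate 1) and 95.8% (replicate 2). The other merged regions of 2000 bp or wider had 95.3% and 98.7%. Reaching this value was thus not particular to broad hotspots. The deposited peaks of 150 bp carry a signal by the authors whose scaling is not stated, used here only to rank peaks within a list. Depth is unknown.

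Overlap meant 1 bp or more. Starts came from the GENCODE annotation of the same build, with RefSeq for the windows at starts, and peaks of the libraries that overlapped were merged into shared peaks. Calculations used Python 3.11.15, NumPy 2.4.6, SciPy 1.17.1 and Matplotlib 3.10.9. On simulated hotspots the rule recovered 596 of 596 planted broad pairs. The regions, gene lists, words and alternatives were chosen with earlier results of these data known. Named regions were the 10 widest, the 5 widest without a start, the 5 most uneven in each direction, the 5 widest of those with starts of the most genes, 3 on each side of the width limit, and the 3 widest of each gene list. Some items these rules name are not reported here. Other names were chosen after their values were seen. Chromosomes X, Y and M and unplaced sequences lay outside the rule. Alternatives changed the width limit, overlap, q value, start window, annotation and peaks, and left out each replicate. The RefSeq annotation was added as an alternative after seeing the data. Where nothing says that the libraries came from separate embryos, the spread between them may be technical.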

Additional observations from a re-analysis of the deposited data

Results flagged for a closer look

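On chromosome X, which the rule leaves out, 18 hotspots of replicate 1 and 30 of replicate 2 were 2000 bp or wider. By the same definition they formed 11 merged broad hotspots of 2223 to 3537 bp, with a median of 2596 bp. They appear here because the comparisons of the report do not use this chromosome, and they were not examined further. Chromosome Y held none in either library, and chromosome M held 1 merged broad hotspot, of 3055 bp.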

How the results depend on the processing

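Of 109 alternative values for 15 results, 81 stayed within a range set around the main value and 28 moved. The range was a factor of 1.5 for the number of broad hotspots and the Wilson interval for the shares at starts, of islands and of genes. For the median width, peaks per kb and the share that met a broad partner it was 1 standard deviation of the 2 libraries. The number of broad hotspots, 918, moved to 2729 with a limit of 1500 bp, 116 with a limit of 3000 bp, and 1747 with replicate 2 alone. With replicate 1 alone it was 1192, within the range. The median width of 2597 bp became 2079 and 3755 bp with these limits, 2350 to 2359 bp with a single library and 2294 bp for the part covered in both. The share at a start was 88.6% at 1500 bp, 86.5 to 89.4% with a single library and, within the range, 92.6% with RefSeq starts. The island share was 96.2% at 1500 bp and 97.4 to 98.1% with a single library, of which 98.1% lay within the range. Peaks per kb fell from 1.71 to 1.46 with peaks above the median signal. At 1500 and 3000 bp the share over all genes was 13.1% and 0.553%, that of limb factors 33.3% and 6.67%, and the GC box away from starts 20.1% and 29.1%. At 1500 bp the share of the Id, cyclin and Myc list was 71.4% and of the NRF1 word 1.54%. At 3000 bp that of immediate early genes was 4.17% and of the ETS word 0.785%. With a single library the share of all genes moved to 5.73 to 7.98%. Limb factors at 31.1%, immediate early genes at 29.2 to 37.5% and the Id list at 57.1 to 64.3% stayed within their ranges. The distal GC box was in 20.8 to 23.7% with a single library, while peaks of replicate 1 alone gave 18.9%. The limits change which regions are counted. A single library drops the rule that both be broad. Depth limits these results in an unknown way, because width depends on where a caller joins or splits signal and no read counts were used here.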
